A study of Mus musculus with 4 samples.

Results

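Cartilage matrix genes were examined in regenerating digit tips of mice. The set holds 10 genes of the 45706 in the count table, chosen by symbol from a list of chondrocyte matrix genes and Sox9, and all 10 were found. They are the collagen genes Col2a1, Col9a1, Col10a1 and Col11a1, the proteoglycan gene Acan and its link protein gene Hapln1, the matrilin genes Matn1 and Matn3, the chondroadherin gene Chad and the transcription factor gene Sox9. Members were picked by name and not by their values here, although earlier results of these data were known when the list was made. RNA was measured 14 days after digit tip amputation in 4 genotypes with 1 library each, namely Sp6 cKO, Sp8 cKO, Sp6+Sp8 cKO and wildtype, where cKO stands for conditional knockout. Sp6 and Sp8 encode transcription factors of the Sp family that are active in limb epidermis. The tissue was digit tip cut free of everything proximal to the last joint. The cKO animals received tamoxifen at 75 mg/kg on each of 5 days and rested for 5 days before amputation. The sources used here do not give the Cre driver, strain, age, the number of animals or digits behind a library, or whether wildtype animals received tamoxifen. The protocol describes cuts through the last and through the middle phalanx, and does not say which was made for these libraries. The labels put all 3 cKO libraries in batch 1 and wildtype alone in batch 3, so for every ratio to wildtype a batch difference and a genotype difference cannot be told apart.

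In cartilage, chondrocytes embed themselves in a network of type II collagen fibrils, with types IX and XI on and within them, that holds aggrecan bound to hyaluronan by link protein. SOX9 switches on many of these genes together with SOX5 and SOX6, and type X collagen marks chondrocytes that enlarge before mineralisation. After a cut through the last phalanx, the bone of the mouse digit tip is known to regrow by direct ossification, without a cartilage template. Several of the listed genes are also known outside cartilage: Sox9 in hair follicles, Chad in tendon and bone, and Col11a1 in other connective tissue.

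Library totals lay between 12588511 and 21834883 estimated counts. Values are given as counts and as CPM, counts set to a common library size with edgeR's TMM factors. With 1 library per genotype nothing was tested, and each 95% interval (exact Poisson for a level, exact Clopper-Pearson for a ratio) covers counting error only. A gene was past the size rule when its log2 ratio was at least 1 in either direction, its CPM was at least 1 in either library, and the interval of the ratio excluded 1. Sp6 stood at 29.2 CPM in Sp6 cKO and 57.8 CPM in Sp6+Sp8 cKO, against 97.7 CPM in wildtype. Sp8 stood at 16.8 CPM in Sp8 cKO and 13.4 CPM in Sp6+Sp8 cKO, against 63.9 CPM in wildtype. Which exons the knockouts remove is not stated in the labels, so these levels check the labels only in part.

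Matn1, Col9a1 and Matn3, typical genes of hyaline cartilage, were at or near 0 in every library and Col2a1 was low, while Chad, Sox9, Col11a1 and Acan were well detected. Matn1, a matrilin of cartilage, had 0 counts in all 4 libraries. The upper ends of its 95% intervals were 0.286 CPM in Sp6 cKO, 0.293 in Sp8 cKO, 0.24 in Sp6+Sp8 cKO and 0.17 in wildtype. Col9a1, a chain of type IX collagen, had 2 counts in Sp6 cKO, 0 in Sp8 cKO, 3 in Sp6+Sp8 cKO and 9 in wildtype. Matn3, a second matrilin, had 9 counts in Sp6 cKO, 8 in Sp8 cKO, 13 in Sp6+Sp8 cKO and 5 in wildtype. Its ratio of Sp6+Sp8 cKO to wildtype was 3.67 (95% interval 1.23 to 13.2), from few reads. These 3 genes stayed under 1 CPM in each library and were not compared under the size rule, which asks for 1 CPM. Without that minimum Matn3 would be past it, higher, in Sp6+Sp8 cKO against wildtype (log2 ratio 1.44), and Col9a1, lower, in Sp8 cKO against wildtype. The other 7 members were above 1 CPM in all 4 libraries. As a set, the listed genes are therefore named here by their list and not taken as a measure of chondrocytes.

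**Figure D1:**
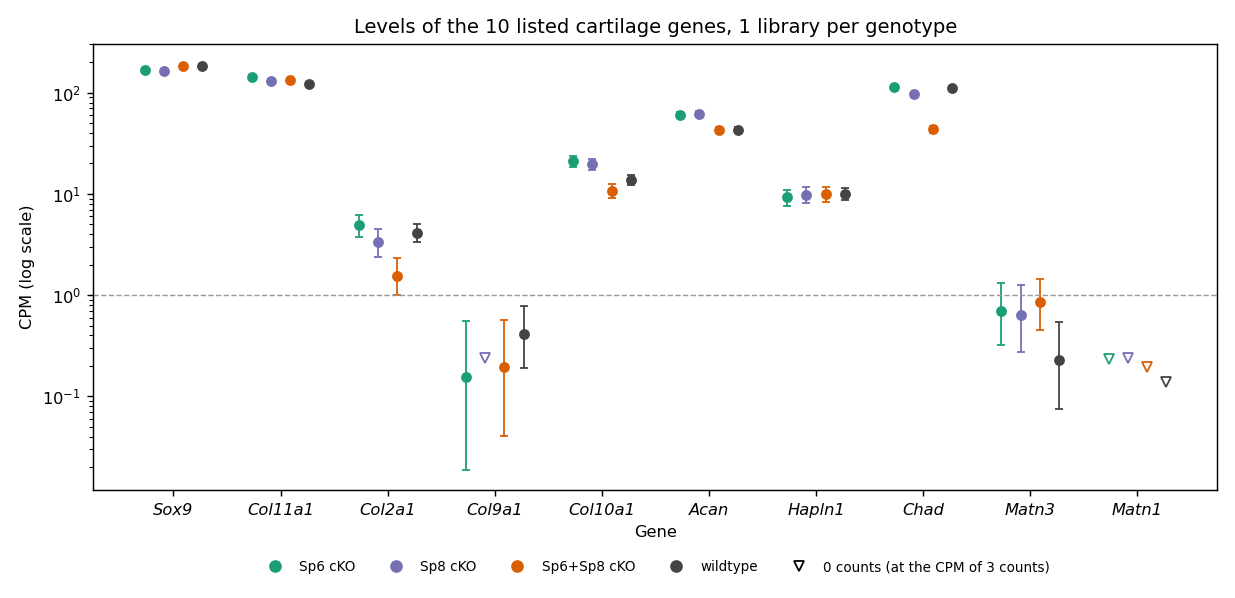
CPM of each listed gene (log axis) in the Sp6 cKO, Sp8 cKO, Sp6+Sp8 cKO and wildtype libraries, with exact Poisson 95% intervals of counting error. Open triangles mark 0 counts, drawn at the CPM of 3 counts, and the dashed line marks 1 CPM. In Sp6+Sp8 cKO, Chad at 43.6 CPM and Col2a1 at 1.56 CPM lie below the other 3 libraries, while Sox9, Col11a1 and Hapln1 lie close together in all 4.

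Between genes, levels were compared per length, as counts per kilobase of annotated exon scaled to the same sum in each library. Chad had 155 such units in Sp6 cKO, 131 in Sp8 cKO, 62.0 in Sp6+Sp8 cKO and 149 in wildtype. Sox9 had 91.2 in Sp6 cKO, 90.4 in Sp8 cKO, 106 in Sp6+Sp8 cKO and 99.7 in wildtype. Chad thus ranked first of the 10 in 3 libraries and second, behind Sox9, in Sp6+Sp8 cKO. In every library they were followed by Col11a1 at 21.5 to 25.5, Acan at 12.8 to 18.7, Col10a1 at 8.19 to 15.2 and Hapln1 at 3.56 to 4.0, in this order. Col2a1, the major fibril collagen of cartilage, reached only 1.20 in Sp6 cKO, 0.824 in Sp8 cKO, 0.403 in Sp6+Sp8 cKO and 1.00 in wildtype. On the same per-length scale Col1a1, the collagen of bone and dermis, stood at 2808 in Sp6 cKO, 2707 in Sp8 cKO, 2305 in Sp6+Sp8 cKO and 2686 in wildtype. In wildtype the level per length of Chad was above that of 98.8% of annotated genes, Sox9 above 98.1% and Col2a1 above 63.2%. Genes with 0 counts are among these, and Col9a1, with 9 counts in wildtype, was above 53%. In CPM, Col2a1 at 4.14 in wildtype lay under 16.6, the median there of genes with at least 1 CPM.

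SOX9, the transcription factor that directs the chondrocyte programme, showed similar RNA levels in CPM in all genotypes. Sox9 (ENSMUSG00000000567, GRCm38 chromosome 11, 112782224 to 112787760, plus strand) had 2136 counts in Sp6 cKO, 2061 in Sp8 cKO, 2825 in Sp6+Sp8 cKO and 3997 in wildtype, in the same order 166, 164, 184 and 184 CPM. The Sp6+Sp8 cKO and wildtype libraries were the higher pair, and the highest CPM was 1.12 times the lowest. The Sox9 ratio of Sp6+Sp8 cKO to wildtype was 0.999 (95% interval 0.951 to 1.05). Sp6 cKO stood at 0.901 of wildtype (0.854 to 0.95) and Sp8 cKO at 0.890 (0.844 to 0.939), below wildtype beyond counting error but far from the size rule. Its partner Sox5 lay between 16.6 and 18.1 CPM and Sox6 between 34.5 and 38.1 CPM over the 4 libraries.

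Among the fibrillar collagen genes, Col2a1 was lowest in Sp6+Sp8 cKO and Col11a1 was not. Col2a1 (ENSMUSG00000022483, chromosome 15, 97975602 to 98004695, minus strand) had 63 counts in Sp6 cKO, 42 in Sp8 cKO, 24 in Sp6+Sp8 cKO and 90 in wildtype, in the same order 4.88, 3.33, 1.56 and 4.14 CPM. The interval of its level in Sp6+Sp8 cKO, 0.999 to 2.32 CPM, lay below those of all other libraries, while those of the single cKO and wildtype libraries overlapped. Within batch 1, Col2a1 in Sp6+Sp8 cKO was 3.13-fold lower than in Sp6 cKO (95% interval 1.93 to 5.24) and 2.14-fold lower than in Sp8 cKO (1.26 to 3.69). Against wildtype it was 2.65-fold lower (1.68 to 4.35). These intervals are wide because Col2a1 gave few reads, and the gene counts do not separate its splice forms. In a bulk sample, fewer cells of a type and less RNA per cell cannot be told apart.

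Col11a1 (ENSMUSG00000027966, chromosome 3, 114030540 to 114220718, plus strand) encodes a chain of type XI collagen, which sits inside type II fibrils and limits their width. It had 1844 counts in Sp6 cKO, 1649 in Sp8 cKO, 2043 in Sp6+Sp8 cKO and 2662 in wildtype, in the same order 143, 131, 133 and 122 CPM. The highest level was 1.17 times the lowest, with wildtype lowest. Its ratio of Sp6+Sp8 cKO to Sp8 cKO was 1.01 (0.95 to 1.08). The log2 ratio of Sp6+Sp8 cKO to wildtype was thus 0.12 for Col11a1 and -1.34 for Col2a1. Within a library, there were 85.1 Col11a1 counts for each Col2a1 count in Sp6+Sp8 cKO (57.0 to 133), against 29.3 in Sp6 cKO (22.8 to 38.3), 39.3 in the Sp8 cKO library (28.9 to 54.7) and 29.6 in wildtype (24.0 to 36.9). This ratio does not depend on how libraries are scaled.

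Col10a1, the type X collagen gene of hypertrophic chondrocytes, was higher in the single cKO libraries than in the other libraries. Col10a1 (ENSMUSG00000039462, chromosome 10, 34389981 to 34397085, plus strand) had 269 counts in Sp6 cKO, 247 in Sp8 cKO, 165 in Sp6+Sp8 cKO and 297 in wildtype, in the same order 20.9, 19.6, 10.7 and 13.7 CPM. Sp6+Sp8 cKO was lowest, and its interval (9.15 to 12.5 CPM) overlapped that of wildtype (12.2 to 15.3 CPM) but not those of the single cKO libraries. Its ratio of Sp6+Sp8 cKO to wildtype was 0.785 (0.645 to 0.953), below 1 beyond counting error. Col10a1 in Sp6+Sp8 cKO was 1.94-fold lower than in Sp6 cKO (1.60 to 2.38) and 1.83-fold lower than in Sp8 cKO (1.5 to 2.24), log2 ratios of -0.95 and -0.86 that fell short of the size rule. Against wildtype, Sp6 cKO was 1.53-fold higher (1.29 to 1.81) and Sp8 cKO 1.44-fold higher (1.21 to 1.71). On the opposite strand, Nt5dc1 shares 18 exonic bases with Col10a1 and lay between 13.6 and 15.9 CPM in the 4 libraries.

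Aggrecan, the large hyaluronan-binding proteoglycan, was likewise lowest among the cKO libraries in Sp6+Sp8 cKO, but at the wildtype level there. Acan (ENSMUSG00000030607, chromosome 7, 79053483 to 79115099, plus strand) had 774 counts in Sp6 cKO, 771 in Sp8 cKO, 660 in Sp6+Sp8 cKO and 924 in wildtype, in the same order 60.0, 61.2, 42.9 and 42.5 CPM. The single cKO libraries formed the high pair, and their intervals did not overlap those of the others. Acan was 1.41-fold higher in Sp6 cKO than in wildtype (1.28 to 1.56) and 1.44-fold higher in Sp8 cKO (1.31 to 1.59), whereas the ratio of Sp6+Sp8 cKO to wildtype was 1.01 (0.912 to 1.12). Within batch 1, Acan in Sp6+Sp8 cKO was 1.40-fold lower than in Sp6 cKO (1.26 to 1.55) and 1.43-fold lower than in Sp8 cKO (1.28 to 1.59). None of these ratios reached the size rule.

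Hapln1, the link protein gene that fixes aggrecan to hyaluronan, lay close together in all 4 libraries. Hapln1 (ENSMUSG00000021613, chromosome 13, 89539796 to 89611652, plus strand) had 119 counts in Sp6 cKO, 122 in Sp8 cKO, 152 in Sp6+Sp8 cKO and 216 in wildtype, in the same order 9.23, 9.69, 9.88 and 9.93 CPM. All 4 intervals overlapped, and the ratio of Sp6+Sp8 cKO to wildtype was 0.994 (0.803 to 1.23).

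Chad, a leucine-rich repeat protein that binds collagen and the integrin receptors of chondrocytes, was the abundant member with the largest difference. Chad (ENSMUSG00000039084, chromosome 11, 94565047 to 94569127, plus strand) had 1472 counts in Sp6 cKO, 1213 in Sp8 cKO, 671 in Sp6+Sp8 cKO and 2421 in wildtype, in the same order 114, 96.3, 43.6 and 111 CPM. Sp6+Sp8 cKO was the low library, and its interval of 40.4 to 47.0 CPM lay far from the next lowest, 91.0 to 102 CPM in Sp8 cKO. Chad in Sp6+Sp8 cKO was 2.62-fold lower than in Sp6 cKO (2.39 to 2.87), 2.21-fold lower than in Sp8 cKO (2.01 to 2.43) and 2.55-fold lower than in wildtype (2.34 to 2.79). Its ratio to wildtype was 1.03 in Sp6 cKO (0.960 to 1.09) and 0.865 in Sp8 cKO (0.807 to 0.927). Acsf2, on the opposite strand across the Chad locus, shares no exonic base with Chad and was highest in Sp6+Sp8 cKO, at 45.8 CPM against 35.1 in Sp6 cKO, 24.3 in the Sp8 cKO library and 27.4 in wildtype.

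**Figure D2:**
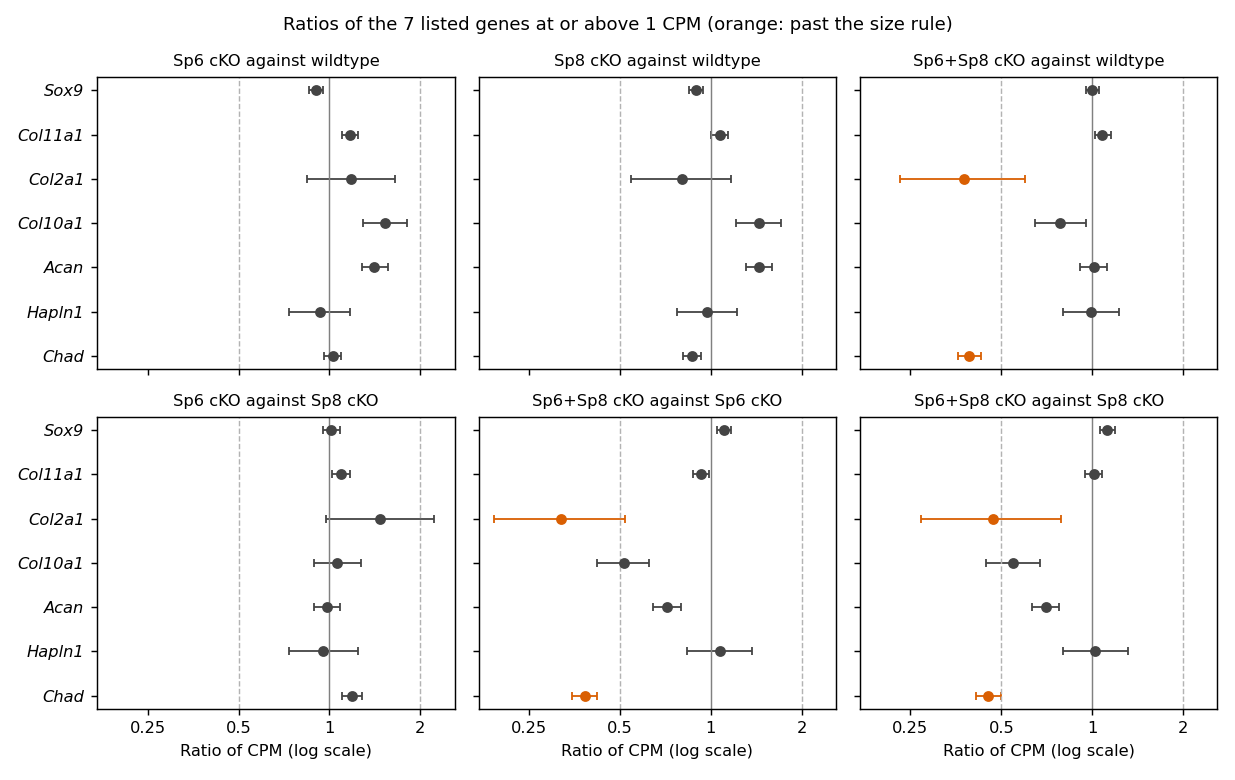
Ratio of CPM for the 7 listed genes above 1 CPM in 6 comparisons of 2 libraries (log axis), the first-named library on top of the ratio, with exact 95% intervals of counting error. Dashed lines mark ratios of 0.5 and 2, and orange points are past the size rule. Chad and Col2a1 are orange in each of the 3 comparisons of Sp6+Sp8 cKO and no gene is orange elsewhere.

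In counts, 2 of the 7 members compared were past the size rule in Sp6+Sp8 cKO against wildtype, Chad and Col2a1, both lower. In that comparison 2.95% of 16861 genes were lower past the rule and 2.84% higher. Against Sp6 cKO the same 2 genes were lower and none was higher, where 2.08% of all genes were lower and 1.89% higher. Against Sp8 cKO they were again the 2 lower members, where 2.80% of all genes were lower and 1.88% higher, but 0 members were past the rule there with libraries scaled to a sum of fibroblast genes. Of all genes past the rule in Sp6+Sp8 cKO, the share that was higher was 47.5% against Sp6 cKO, 40.1% against Sp8 cKO and 49.1% against wildtype. With that scaling these shares were 78.0%, 73.7% and 80.0%. The 3 comparisons share the Sp6+Sp8 cKO library and are not independent of each other. No member was past the rule in Sp6 cKO against wildtype (2.16% of all genes lower, 2.24% higher), in Sp8 cKO against wildtype (1.55% lower, 2.27% higher) or in Sp6 cKO against Sp8 cKO (1.75% lower, 1.35% higher). The median log2 ratio over the 7 members in Sp6+Sp8 cKO was -0.48 against Sp6 cKO, -0.51 against Sp8 cKO and -0.01 against wildtype, beside medians over all genes of -0.01, -0.02 and -0.02. These member medians depend on the settings: across the alternatives that moved them they lay between -0.29 and -0.11 against Sp6 cKO and between -0.25 and 0.02 against Sp8 cKO, and the median against wildtype was 0.31 with the fibroblast sum. For the other comparisons it was 0.22 in Sp6 cKO against wildtype, -0.04 in Sp8 cKO against wildtype and 0.09 in Sp6 cKO against Sp8 cKO, where the medians over all genes were -0.01, -0.01 and 0.00.

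Promoter windows of 250 bases before to 50 after the RefSeq start (GRCm38.p6) were found for 8 members, and Col2a1 and Sox9 had none. Both strands were searched for GGGCGG, the GC box that Sp-family proteins are known to bind, and for ACAATG and ACAAAG, 2 forms of the SOX core. Windows are shown for Chad, the abundant member lowest in Sp6+Sp8 cKO, and for Acan and Col10a1, which were lower there than in the single cKO libraries without reaching the size rule. All 3 are on the plus strand, printed 5′ to 3′, with matches to these motifs in capitals.
Chad (chr11:94564797-94565096): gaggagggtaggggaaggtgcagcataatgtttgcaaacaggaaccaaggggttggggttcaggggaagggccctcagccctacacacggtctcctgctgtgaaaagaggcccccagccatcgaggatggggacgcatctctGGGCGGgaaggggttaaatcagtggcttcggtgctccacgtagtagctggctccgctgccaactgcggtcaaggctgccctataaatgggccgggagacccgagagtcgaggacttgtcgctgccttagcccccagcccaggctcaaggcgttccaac
Acan (chr7:79052976-79053275): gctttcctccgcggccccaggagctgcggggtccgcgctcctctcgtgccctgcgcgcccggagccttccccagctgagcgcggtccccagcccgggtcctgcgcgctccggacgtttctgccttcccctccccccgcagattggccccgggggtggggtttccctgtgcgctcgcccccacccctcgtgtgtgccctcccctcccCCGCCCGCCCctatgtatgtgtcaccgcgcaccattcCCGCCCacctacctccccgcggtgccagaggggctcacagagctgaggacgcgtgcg
Col10a1 (chr10:34389731-34390030): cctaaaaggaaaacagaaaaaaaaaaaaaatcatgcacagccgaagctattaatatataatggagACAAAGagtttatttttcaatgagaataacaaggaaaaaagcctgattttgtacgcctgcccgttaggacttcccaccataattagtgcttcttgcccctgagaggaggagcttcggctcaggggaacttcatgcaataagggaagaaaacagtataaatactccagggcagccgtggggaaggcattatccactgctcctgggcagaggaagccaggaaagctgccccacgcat

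The Chad window holds 1 GGGCGG, starting 108 bases before the start. The Acan window holds it 3 times on the minus strand, printed here as CCGCCC, starting 44, 40 and 7 bases before the start, the first 2 overlapping in 1 run of capitals. The Col10a1 window holds 1 ACAAAG, starting 185 bases before the start, and no GC box. Across the 8 members with a window, 5 had GGGCGG (Col11a1, Acan, Matn1, Matn3 and Chad), against 35.7% of all 32851 windows. Members are counted as genes here and the background as windows: Col9a1 had 2 windows, neither with GGGCGG. The windows of these 5 members were 61 to 74% G or C, and those of the other members 44.3 to 55.7%. The median over all windows was 52.7%, so the shares are not matched for base composition. ACAAAG occurred in 1 member, against 18.7% of windows, and ACAATG in none, against 12.6%. A letter match is a description and not a binding site. Col2a1 had no window, and Matn1 and Matn3 lay under 1 CPM. Whether the matches have a part in the levels was not tested.

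The other genes of the cartilage pathway were described with 94 genes in 6 groups. Other matrix genes lay lower in Sp6+Sp8 cKO than in the other libraries by their median in CPM, while the medians of regulators and of glycosaminoglycan synthesis lay near 0. Of the 28 matrix genes, Comp and Fmod are also in the tendon list and Dcn is also in the fibroblast list, whose sum serves as an alternative scaling. Of these 28, 22 were compared between Sp6+Sp8 cKO and Sp6 cKO, with 4 lower, 0 higher and a median log2 ratio of -0.53. Against Sp8 cKO 3 of 22 were lower and 0 higher (median -0.58), and against wildtype 3 of 21 were lower and 1 higher (median -0.30). Of all genes, 2.08% were lower and 1.89% higher against Sp6 cKO, 2.80% and 1.88% against Sp8 cKO, and 2.95% and 2.84% against wildtype. Medians over all genes lay between -0.02 and -0.01 in these comparisons. With libraries scaled to the sum of 12 fibroblast genes instead, an alternative added for this group after its values were seen, the medians were -0.27 against Sp6 cKO, -0.29 against Sp8 cKO and 0.02 against wildtype, with 2, 1 and 1 genes lower.

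Cilp2, a protein of the intermediate layer family of cartilage, had 14.0 CPM in Sp6 cKO, 10.6 in Sp8 cKO, 5.65 in Sp6+Sp8 cKO and 12.4 in wildtype. Its log2 ratio in Sp6+Sp8 cKO was -1.28 against Sp6 cKO and -1.12 against wildtype. Cytl1, a secreted protein known in chondrocytes, had 7.08 CPM in Sp6+Sp8 cKO against 15.3 in Sp6 cKO, a log2 ratio of -1.09. Susd5, at 2.08 CPM in Sp6+Sp8 cKO, had log2 ratios of -1.09, -1.17 and -1.42 against Sp6 cKO, Sp8 cKO and wildtype. Scrg1 was at -1.07 against wildtype from 33 and 101 counts, and Epyc, the small proteoglycan epiphycan, at -1.09 against Sp8 cKO from 23 and 42 counts. Snorc, a proteoglycan of cartilage listed in the table as 3110079O15Rik, had 24 counts in Sp6 cKO, 16 in Sp8 cKO, 5 in Sp6+Sp8 cKO and 17 in wildtype. It was past the rule in Sp6+Sp8 cKO against both single cKO libraries, and in Sp6 cKO against wildtype in the other direction, at a log2 ratio of 1.13. The 1 gene higher in Sp6+Sp8 cKO than in wildtype was Hapln4, a link protein known from brain, with 24 counts against 3. Hapln4 was also past the rule, higher, in Sp6 cKO and in Sp8 cKO against wildtype, with 14 counts in each.

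Partners of the member collagens followed them only in part. Col9a2, which forms type IX collagen with Col9a1, had 6 counts in Sp6 cKO, 4 in Sp8 cKO, 3 in Sp6+Sp8 cKO and 9 in wildtype. Col9a3, its other chain, had 20 counts in Sp6 cKO, 18 in Sp8 cKO, 13 in Sp6+Sp8 cKO and 28 in wildtype. Col11a2, a chain of type XI collagen, had 37.1 CPM in Sp6 cKO, 33.2 in Sp8 cKO, 26.5 in Sp6+Sp8 cKO and 37.3 in wildtype. All 3 type IX chains thus lay at or below 1.55 CPM, while both type XI chains were at 26.5 CPM or more. Prg4, the lubricin gene of joint surfaces and synovium, stood at 817 CPM in Sp6 cKO, 690 in Sp8 cKO, 690 in Sp6+Sp8 cKO and 511 in wildtype.

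No chondrocyte regulator of 13 compared, no gene of glycosaminoglycan sulfation and chain synthesis of 13, and no collagen processing gene of 16 was past the size rule in any of the 6 comparisons. Their medians in Sp6+Sp8 cKO against Sp6 cKO were 0.06, 0.06 and -0.15. Over all genes, 1.35% to 2.95% were past the rule in a given direction and comparison. In groups this small, an absence of such genes is not read as a result. Ihh, the hedgehog signal of prehypertrophic chondrocytes, had 3 counts in Sp6 cKO, 4 in Sp8 cKO, 1 in Sp6+Sp8 cKO and 4 in wildtype. In the group of hypertrophy and mineralisation, Mmp13, a collagenase, and Ibsp, bone sialoprotein, were the 2 of 9 genes past the rule, higher in Sp8 cKO than in wildtype and likewise in Sp6+Sp8 cKO. Mmp13 was at 83.9 CPM in Sp8 cKO and 111 CPM in Sp6+Sp8 cKO, against 38.5 CPM in wildtype. Both genes are also known in osteoblasts, and Ibsp stands in the osteoblast list. Among 11 genes of aggrecan and collagen degradation, 2 were higher than wildtype in Sp6 cKO, 2 were in Sp8 cKO, 3 were in Sp6+Sp8 cKO, and none was lower. Mmp13 belongs to both groups and is counted in each. The proteases Mmp9 and Mmp3 had log2 ratios of 2.44 and 1.66 in Sp6+Sp8 cKO against wildtype, and Mmp9 is also an osteoclast marker. No gene of either group was past the rule among the cKO libraries, within batch 1. Adamts4 and Adamts5, the aggrecanase genes in this group, were not past the rule in any comparison.

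**Figure D3:**
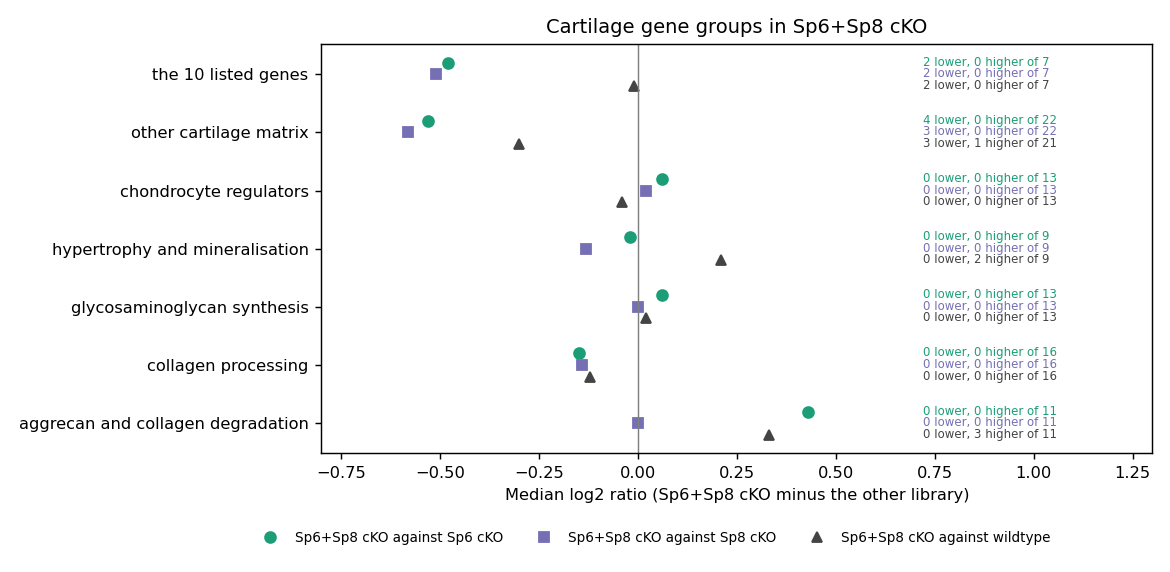
Median log2 ratio of Sp6+Sp8 cKO against Sp6 cKO (circles), Sp8 cKO (squares) and wildtype (triangles) for the listed genes and 6 further cartilage gene groups, with the number of genes past the size rule written at the right. The listed genes and the other cartilage matrix genes have medians of -0.48 and -0.53 against Sp6 cKO, and regulators and glycosaminoglycan synthesis both 0.06. With the fibroblast sum as scaling these medians are -0.23, -0.27, 0.32 and 0.31.

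Marker genes of other tissues also differed in Sp6+Sp8 cKO, and their part in the Chad and Col2a1 values was not tested. The summed CPM of 14 osteoblast and osteocyte genes was 12788 in Sp6 cKO, 12228 in Sp8 cKO, 10162 in Sp6+Sp8 cKO and 12532 in wildtype. In Sp6+Sp8 cKO against wildtype 3 of them were lower, Bglap at a log2 ratio of -1.56, Sost at -1.25 and Bglap2 at -1.09, and 1, Ibsp, was higher. Within batch 1, Mepe was lower against Sp6 cKO (-1.64) and Mepe (-1.74), Sost (-1.26) and Bglap2 (-1.04) against Sp8 cKO, and none was higher. These osteoblast and osteocyte ratios are of the size of those of Chad, but they are of the markers picked by the size rule. The list median was -0.40 against Sp6 cKO and -0.25 against Sp8 cKO. Mepe had 14 counts in Sp6+Sp8 cKO against 40 in Sp6 cKO and 42 in Sp8 cKO, and was also higher in Sp8 cKO than in wildtype (1.03). Over all genes, 2.95% were lower in Sp6+Sp8 cKO against wildtype, 2.08% against Sp6 cKO and 2.80% against Sp8 cKO. Summed CPM of 12 fibroblast genes was 5442 in Sp6 cKO, 5543 in Sp8 cKO, 4554 in Sp6+Sp8 cKO and 5690 in wildtype, with none past the rule. Summed CPM of 10 tendon genes was 1031 in Sp6 cKO, 1059 in Sp8 cKO, 859 in Sp6+Sp8 cKO and 1005 in wildtype, with Kera, keratocan, lower in Sp6+Sp8 cKO than in both single cKO libraries. The sums rest on their most abundant genes: Col1a1 and Col1a2 gave 6332 and 3229 CPM of the osteoblast sum in Sp6+Sp8 cKO, and Egr1, Fmod and Tnc gave 243, 234 and 214 CPM of the tendon sum. The list medians of the log2 ratio of Sp6+Sp8 cKO to wildtype were -0.35 for osteoblast, -0.43 for tendon and -0.25 for fibroblast genes. No gene of these 3 lists was at 0 in all libraries, while 1 of 6 skeletal muscle genes was, and the summed muscle level lay between 0.506 and 1.43 CPM. Of the marker lists, the one furthest below wildtype in Sp6+Sp8 cKO was that of nail and hair keratins, with 7 of its 8 genes in the table. Its summed CPM was 5288 in Sp6 cKO, 5842 in Sp8 cKO, 2624 in Sp6+Sp8 cKO and 4998 in wildtype. In Sp6+Sp8 cKO 4 of 7 were lower past the rule against Sp6 cKO, 5 of 7 against Sp8 cKO and 2 of 7 against wildtype. With the fibroblast sum as scaling these counts were 1, 3 and 0. The log2 ratio of the summed CPM in Sp6+Sp8 cKO to wildtype was -0.93, a ratio of sums without a prior count. By single-gene log2 ratios, with a prior count of 2, the list median was -0.96, beside -1.35 for Chad and -1.34 for Col2a1. Within the list Krt33b was at -1.26 and Krt83 at -1.13, while Krt33a had 414 CPM in Sp6+Sp8 cKO against 482 in wildtype. No keratin of the list was at 0 in all libraries. The sum of 8 endothelial genes was 241 CPM in Sp6 cKO, 254 in Sp8 cKO, 189 in Sp6+Sp8 cKO and 237 in wildtype. The osteoclast sum, over 10 genes, was 400 CPM in Sp6 cKO, 520 in Sp8 cKO, 546 in Sp6+Sp8 cKO and 266 in wildtype. Erythroid genes summed to 692 CPM in Sp8 cKO, against 267 to 353 CPM in the other libraries. Basal keratinocyte genes summed to 6012 to 6628 CPM and Schwann cell genes to 122 to 145 CPM over the 4 libraries.

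Counts of a member over those of another tissue in the same library do not depend on scaling, though they depend on the abundant genes that carry each sum. Chad had 4.29 counts per 1000 osteoblast and osteocyte counts in Sp6+Sp8 cKO, against 8.93 in Sp6 cKO, 7.88 in the Sp8 cKO library and 8.88 in wildtype. Per 1000 tendon counts it had 50.8 in Sp6+Sp8 cKO, against 111 in Sp6 cKO, 90.9 in the Sp8 cKO library and 111 in wildtype. Per 1000 fibroblast counts it had 9.58 in Sp6+Sp8 cKO, against 21 in Sp6 cKO, 17.4 in the Sp8 cKO library and 19.6 in wildtype. Chad was thus the low value in Sp6+Sp8 cKO by each denominator, with a smaller gap than by CPM. Sox9 was the high value there by each, at 18.1 per 1000 osteoblast and osteocyte counts in Sp6+Sp8 cKO against 13 to 14.7 in the other libraries. With the fibroblast sum as the scaling, the log2 ratio of Chad in Sp6+Sp8 cKO was -1.13 against Sp6 cKO, -0.86 against Sp8 cKO and -1.03 against wildtype, so that against Sp8 cKO neither Chad nor Col2a1 (-0.77) was past the size rule. That scaling moved the median of all genes to 0.25 against Sp6 cKO, 0.27 against Sp8 cKO and 0.31 against wildtype. Under it the log2 ratio of Sp6+Sp8 cKO to wildtype was 0.32 for Sox9 and 0.33 for Acan, close to that median of all genes.

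**Figure D4:**
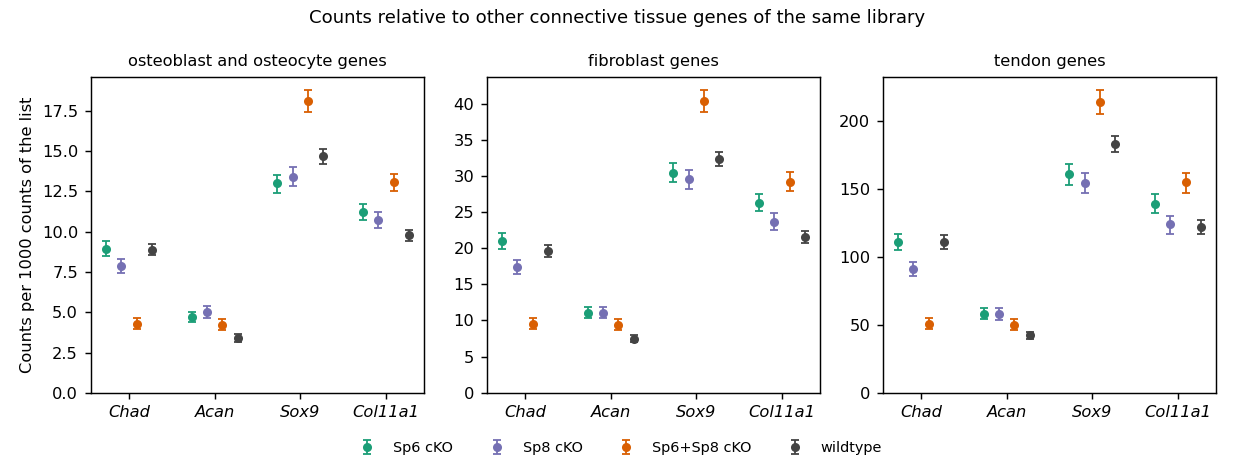
Counts of Chad, Acan, Sox9 and Col11a1 per 1000 summed counts of osteoblast and osteocyte, fibroblast and tendon genes in the same library, with exact 95% intervals of counting error. Chad in Sp6+Sp8 cKO, at 4.29, 9.58 and 50.8, is the lowest of the 4 libraries in all panels, and Sox9 in Sp6+Sp8 cKO, at 18.1, 40.3 and 214, is the highest.

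Of the other members, Col2a1 was nearest to Chad in its pattern over the libraries. Likeness was the distance between log2 CPM values centred over the 4 libraries, so that 0 means the same pattern. Chad and Col2a1 were 0.21 apart. Both were past the size rule in the same comparisons of these values, so their nearness is not a separate result. The next nearest member to Chad was Col10a1 at 0.73, followed by Acan at 0.99, Col11a1 at 1.15, Hapln1 at 1.17 and Sox9 at 1.22, with Col9a1 and Matn3, under 1 CPM, at 1.89 and 1.98. There were 23.4 Chad counts per Col2a1 count in Sp6 cKO (18.2 to 30.6), 28.9 in Sp8 cKO (21.2 to 40.3), 28.0 in Sp6+Sp8 cKO (18.6 to 43.9) and 26.9 in wildtype (21.8 to 33.6), all intervals overlapping. Chad counts per Sox9 count, by contrast, were 0.238 in Sp6+Sp8 cKO (0.218 to 0.258), against 0.689 in Sp6 cKO, 0.589 in the Sp8 cKO library and 0.606 in wildtype. Among 9569 other genes with a mean CPM of at least 10, the nearest to Chad were Cilp2 and Hist1h2bn and Baiap2l1 at 0.21, then Capn12 and Fetub at 0.25. The 5 nearest to Col2a1 were Chad and Cilp2 at 0.21, H60c at 0.27, Mest at 0.30 and Hist1h2bn at 0.31. Within a distance of 0.5 there were 49 genes for Chad and 18 for Col2a1, over only 4 libraries.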

How the data were processed

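Estimated counts per gene, not scaled for depth, were taken as deposited by the authors. Per the submitters' processing notes, Salmon, STAR, Trim Galore 0.6.4, deepTools, featureCounts and edgeR were used on build GRCm38. The sources used here do not give their roles or the gene annotation. Per the labels' protocols, libraries were poly-A selected and strand-specific (dUTP), with paired reads of 150 bases. Counts were rounded. Unused was 1 column whose name fits no sample. TMM factors (edgeR 4.0.16, R 4.3.3) came from all 4 libraries, and log2 ratios used log2 CPM at a prior count of 2. Positions and exon lengths came from GENCODE M21 (GRCm38), which held 98.8% of identifiers. Salmon's own effective lengths were not used. Intervals were computed with SciPy 1.17.1 and take no account of PCR duplicates. Cnmd and Snorc were matched by identifier, and Krt85, a nail and hair keratin marker, was not matched. The members and lists were chosen with earlier results of these data known. Genes named outside the list were those past the size rule, at most 4 per group and comparison by absolute log2 ratio, and the 5 nearest in pattern to Chad and Col2a1, without predicted genes and pseudogenes. The partner chains of the member collagens, Sox5, Sox6, Ihh, Prg4, Col1a1, the aggrecanases and the neighbours on the opposite strand were named besides these after their values were seen, and the Acan and Col10a1 promoters are shown for contrast. The size rule was tested on simulated data with known folds. These were drawn with counting error only, so variation between animals or batches was not covered. Alternatives were DESeq2 1.42.0 size factors, plain totals, totals without the 20 most abundant genes, the fibroblast sum, a prior count of 0.5, a CPM minimum of 0 or 5 and a log2 threshold of 0.58.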

Additional observations from a re-analysis of the deposited data

How the results depend on the processing

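Of 330 single-gene log2 ratios recomputed under the alternatives, 312 stayed on their side of the size rule within their counting interval, 13 moved beyond it, 2 no longer passed the rule and 3 newly passed it, and none changed direction among those past the rule. These ratios are of the members compared under the main settings and leave out Col9a1, Matn1 and Matn3. All changes among these ratios arose under the fibroblast sum as scaling or, for the 3 new ones (Col10a1), under the log2 threshold of 0.58. The number of listed genes past the size rule in Sp6+Sp8 cKO against Sp8 cKO was 0 with the fibroblast sum. With a CPM minimum of 5, which leaves out Col2a1, it was 1 against each of wildtype, Sp6 cKO and Sp8 cKO. It was 1 in Sp6 cKO against wildtype at the threshold of 0.58 (Col10a1). Without a CPM minimum it was 1 in Sp8 cKO against wildtype, for Col9a1 with 0 and 9 counts (ratio interval 0 to 0.874). In Sp6+Sp8 cKO against wildtype it was 3 without a minimum and also without the 20 most abundant genes, with Matn3 added, which was higher where Chad and Col2a1 were lower. The median log2 ratio in Sp6+Sp8 cKO against Sp6 cKO was -0.25 without the 20 most abundant genes, -0.23 with the fibroblast sum, -0.11 without a CPM minimum and -0.29 with a minimum of 5. Against Sp8 cKO these medians were -0.21, -0.23, 0.02 and -0.25, and the number of listed genes in them differed (8, 7, 9 and 6). Against wildtype the median was 0.31 with the fibroblast sum, where the median of all genes was also 0.31. The counts of Col2a1, Col9a1, Matn3 and Matn1 limit what these depths can show. No paired analysis was possible because each genotype has 1 library.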
